A study of Mus musculus with 4 samples.

Results

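The genes described here encode the proteasome, its assembly chaperones and its activators. They were the genes of the deposited count table whose symbol begins with *Psm*, then a letter from a to g, then a number. The rule found 51 of 50559 genes, and 49 of them averaged 10 or more reads over the 4 libraries and are called tested below, as were 18586 genes in all. The 2 members that were not tested were *Psmb8* and *Psmb11*. *Psmc3ip* and *Psme3ip1* match the rule because they are named for a proteasome partner, and neither is a proteasome subunit. Another 6 pseudogene rows with names in -ps fall outside the rule. Members were chosen by name and not by any measured value.

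RNA was sequenced from mouse embryonic stem cells (ESCs) labelled as the E14 line, to ask which transcripts differ after silencing of *Ythdf2* and whether YTHDF2 that can or cannot bind m6A brings them back. YTHDF2 reads N6-methyladenosine (m6A) in the cytoplasm and brings bound transcripts to the decay machinery. There were 4 groups with 1 library each. The control (shScram+EV) had a scrambled hairpin and an empty vector. The knockdown (shYthdf2+EV) had a hairpin against *Ythdf2* and the same vector. The wild-type rescue (shYthdf2+DF2WT) had that hairpin and added wild-type YTHDF2, and the mutant rescue (shYthdf2+DF2Mut) had it with YTHDF2 mutated at its m6A-binding site. Per the methods of the study, all cells carried a tdTomato gene under the *MERVL* promoter and a lentiviral hairpin under puromycin selection. Which of the study's hairpins against *Ythdf2* was used is not given in the sources used here. The methods of the study speak of biological replicates for every group, but the labels list a single library of each, and whether it pools such replicates is not given in the sources used here. Each difference is therefore one of single libraries, with no replicate check and no p-value, and every interval covers counting error only.

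Total counts were between 31533129 and 35742335 reads per library. *Ythdf2* had 2806 reads in the control, 662 in the knockdown, 7661 in the wild-type rescue and 6925 in the mutant rescue. Silencing and added *Ythdf2* thus followed the labels, but reads per gene cannot tell the wild-type from the mutant form. The 10 ESC markers examined summed to between 196611 and 234703 reads. The 10 markers of 2-cell-like cells, the rare cultured ESCs that express genes of the 2-cell embryo, summed to 5568 reads in the control, 21779 in the knockdown, 6409 in the wild-type rescue and 17011 in the mutant rescue. Mitochondrial genes took 8.44% of the reads in the control and between 6.14% and 6.75% in the other libraries. In bulk RNA, fewer cells of a type and less RNA per cell cannot be told apart.

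The proteasome degrades proteins marked with ubiquitin. Its core particle is a barrel of stacked rings: the outer alpha rings gate the entrance, and the inner beta rings hold the catalytic sites. The regulatory particle caps the barrel, with a base of ATPases that unfold the substrate and a lid that removes its ubiquitin chain. Dedicated chaperones assemble the particle and leave it, and alternative activators can take the place of the regulatory particle. Since subunits are needed in fixed proportions, proteasome genes are known to be transcribed together, and the transcription factor NFE2L1 raises them when the proteasome is inhibited.

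NFE2L1 and its relative NFE2L2 bind the antioxidant response element, whose core can be written TGACNNNGC. RefSeq promoters on the GRCm38.p6 build, from 250 bases before to 50 bases after the start site, were given for 43 of the 51 members and were searched for these letters on both strands. The letters were found in 6 members, or 14.0%, and in 14.0% of 27025 genes with a promoter and 16.5% of the tested ones. The sites are shown because they are where the known regulator's letters lie, 5′ to 3′ on the strand on which the motif reads TGACNNNGC, with the motif in capitals. *Psmb5* and *Psmb6* encode catalytic subunits, *Psmc6* a base ATPase, *Psmd12* a lid subunit, *Psmd9* a chaperone and *Psme4* an activator.
Psmb5, chr14:54618024-54618052, minus strand: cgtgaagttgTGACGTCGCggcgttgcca
Psmb6, chr11:70525338-70525366, plus strand: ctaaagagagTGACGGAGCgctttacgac
Psmc6, chr14:45329587-45329615, minus strand: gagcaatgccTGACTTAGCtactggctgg
Psmd12, chr11:107479278-107479299, minus strand: ggggcaaatgTGACACAGCaga
Psmd9, chr5:123228149-123228177, plus strand: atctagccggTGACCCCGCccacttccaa
Psme4, chr11:30771758-30771786, minus strand: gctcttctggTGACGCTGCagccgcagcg

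The site began 47 bases before the start site in *Psmb5*, 9 in *Psmb6*, 31 in *Psmd9*, 227 in *Psmc6* and 247 in *Psmd12*, and in *Psme4* it lay across the start site. The 6 members with the letters had a median log2 ratio of the knockdown to the control of 0.21 (range -0.06 to 0.41). In the 35 tested members whose promoter lacked them it was 0.06 (-0.32 to 1.72). For the mutant rescue to the wild-type rescue the medians were -0.01 (-0.57 to 0.46) and -0.18 (-0.77 to 0.25). Promoters were given for only 4 of the 7 beta ring genes, and 2 of these 4 held the letters. CCAAT, the letters of another common promoter element, stood in 16 members, or 37.2%, and in 41.1% of all genes with a promoter, and 5 of the 7 alpha ring promoters held it. A match of letters is a description and not a bound site. The positions of genes given below follow the deposited table and are on mm39, another build than that of these sites.

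Levels were compared between genes as RPKM, in which reads are divided by exon length and library size. The median tested member stood at 83.6 RPKM in the control, 88.8 in the knockdown, 86.7 in the wild-type rescue and 83.1 in the mutant rescue. In the control the alpha ring had a median of 115 RPKM, the beta ring 133, the base 126 and the lid 102, so the parts of the particle lay close together. The chaperones, which do not stay in the finished particle, had a median of 17.7 RPKM, and the activators and the inhibitor 25.2. Within the beta ring the lowest level was that of *Psmb5* at 34.3 RPKM and the highest that of *Psmb7* at 193, although each ring holds 1 copy of every subunit. The *Psmb5* value is uncertain, since 88.4% of its longest transcript is at least 98% identical to other genes, *Gm3375* among them, and reads that aligned to several places were left out. The same holds for *Psma5*, with 76.5% matched by *Gm8394*, and for *Psme2* and *Psme2b*, which match each other over 82.5% and 94.9%.

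**Figure D1:**
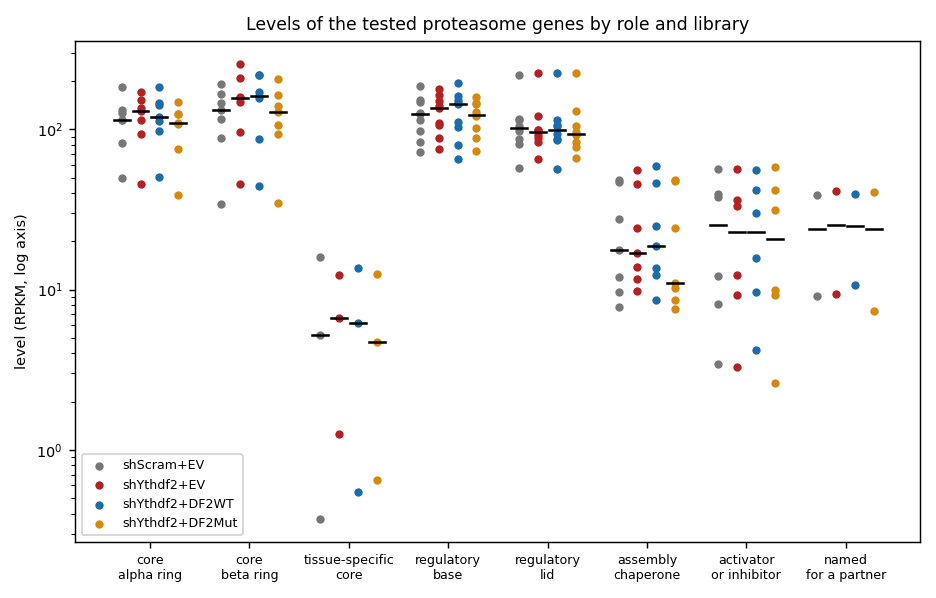
Level of each of the 49 tested proteasome genes in RPKM on a log axis, by role (horizontal) and library (colour), with 1 point per gene and a black bar at the median. The medians of the rings, base and lid lie between 94.1 and 161 RPKM, and the tissue-specific subunits reach at most 16.0 RPKM.

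The 51 members took 0.647% of the reads in the control (95% Wilson interval 0.643 to 0.651), 0.695% in the knockdown (0.691 to 0.699), 0.695% in the wild-type rescue (0.691 to 0.699) and 0.658% in the mutant rescue (0.654 to 0.662). The share was therefore higher in the knockdown and the wild-type rescue than in the other libraries, whereas the 2-cell-like markers were higher in the knockdown and the mutant rescue. Among the tested members, 25 of 49 had their lowest level in the mutant rescue, beside 25.9% of all tested genes and 23.3% of genes averaging 500 reads or more. The highest level was in the wild-type rescue for 20 members, beside 26.4% of all tested genes, and in the knockdown for 16, beside 22.3%. The level was higher in both the knockdown and the wild-type rescue than in either of the other libraries for 23 of 49 members, beside 15.8% of all tested genes and 16.1% of genes averaging 500 reads or more. These pairs of libraries were set together after their values were seen.

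Silencing of *Ythdf2* went with small differences in these genes. In the knockdown against the control, 32 of 49 members were higher, beside 49.8% of all tested genes, and the median log2 ratio was 0.09, with medians of the members' counting bounds of -0.01 and 0.19. Over all tested genes the median was -0.0015. The counting interval lay above 0 for 22 members and below 0 for 11, beside 23.2% and 22.8% of all tested genes. Of the members, 48 differed by less than 1.5-fold. The 1 member at least 2-fold higher was *Psmb9*, which had few reads, beside 7.1% of all tested genes. Of the 43 members averaging 500 reads or more, 0 were 2-fold higher, beside 0.972% of all genes at that level.

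In the wild-type rescue against the knockdown, 27 of 49 members were higher, beside 50.4% of all tested genes, with a median of 0.03. The 1 member at least 2-fold lower was again *Psmb9*, beside 5.58% of all tested genes. In the mutant rescue against the knockdown, 10 members were higher, beside 51.2% of all tested genes, and the median was -0.12, beside 0.0066 over all tested genes.

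Between the libraries with the 2 forms of YTHDF2, the median of the members lay further from 0. In the mutant rescue against the wild-type rescue, 14 members were higher and 35 lower, beside 49.0% and 51.0% of all tested genes. The median log2 ratio of the members was -0.17, with counting bounds of -0.27 and -0.02, beside -0.012 over all tested genes. None of the 49 passed 2-fold in either direction, beside 5.4% of all tested genes higher and 6.21% lower. At 1.5-fold, 4 of 49 members were lower, beside 14.9% of all tested genes. They were *Psmg4*, *Psme2b*, *Psmg3* and *Psme2*, none of which encodes a constitutive subunit of the particle, and each averaged under 500 reads. Of the 43 members averaging 500 reads or more, 0 were 1.5-fold lower, beside 4.87% of all genes at that level.

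**Figure D2:**
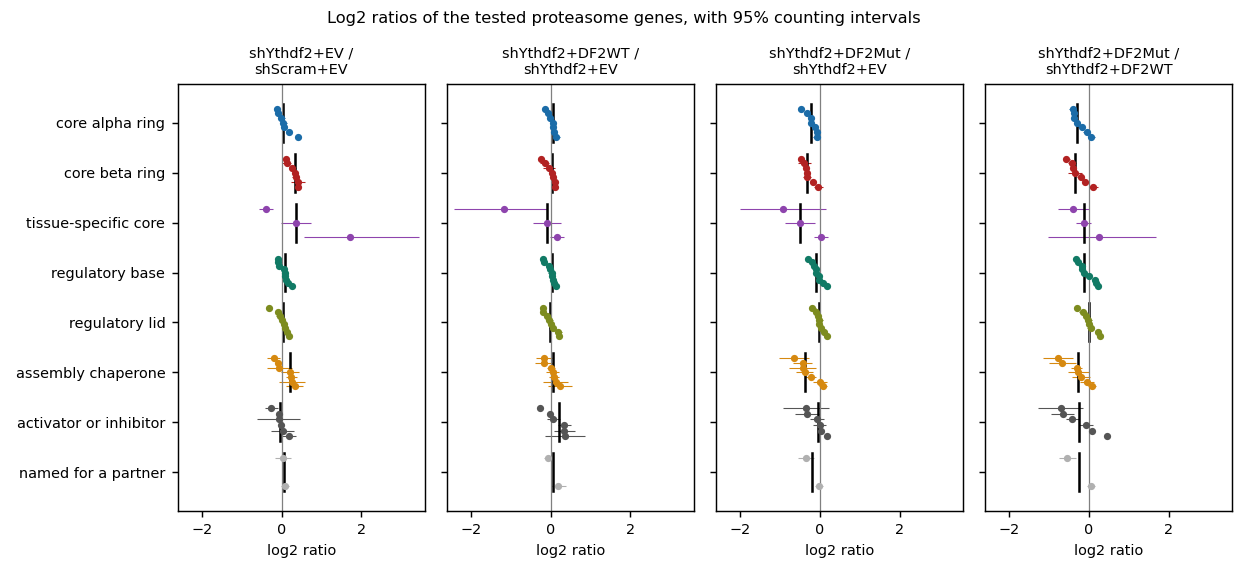
Log2 ratio of each tested proteasome gene (horizontal axis) by role (vertical axis) in 4 pairs of libraries, with 95% counting intervals as thin lines and the median of each role as a black bar. The 7 beta ring genes all lie right of 0 in the first panel, and none of them does in the third.

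Of the 4 parts of the particle, the beta ring had the largest median difference between the knockdown and the control. In the knockdown against the control, all 7 were higher, by 0.10 to 0.42 on the log2 scale with a median of 0.33, or 25.6%, and all 7 counting intervals lay above 0. *Psmb6* (mm39 chromosome 11, 70416116 to 70418684, plus strand), which encodes the caspase-like catalytic subunit, had 4115 reads in the control, 5966 in the knockdown, 5843 in the wild-type rescue and 3814 in the mutant rescue. Its level was high in the knockdown and the wild-type rescue and low in the other libraries, with no overlap. The log2 ratio was 0.35 (0.27 to 0.43) for the knockdown to the control and -0.57 (-0.65 to -0.48) for the mutant rescue to the wild-type rescue. The latter was -0.32 once the dependence of the ratios on GC content and exon length over all tested genes was subtracted.

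*Psmb7* (chromosome 2, 38478058 to 38533964, minus strand) encodes the trypsin-like catalytic subunit and had the largest ratio of the knockdown to the control among members averaging 50 reads or more. It had 6443 reads in the control, 9802 in the knockdown, 7652 in the wild-type rescue and 6962 in the mutant rescue. The log2 ratio to the control in the knockdown was 0.42 (0.35 to 0.48), which became 0.20 with GC content and length subtracted. This was below *Psmb5* at 0.37, *Psma5* at 0.35, *Psmd9* and *Psmb10* at 0.34 and *Psmb6* at 0.31, among others. The ratio of the mutant rescue to the wild-type rescue was -0.09 (-0.15 to -0.02), and -0.19 with that subtraction.

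*Psmb5* (chromosome 14, 54851577 to 54855452, minus strand), for the chymotrypsin-like subunit, had 944 reads in the control, 1430 in the knockdown, 1277 in the wild-type rescue and 967 in the mutant rescue, with log2 ratios of 0.41 (0.24 to 0.58) and -0.35 (-0.52 to -0.18) in the same pairs of libraries. With GC content and length subtracted, the second of these changed sign, to 0.10. The non-catalytic *Psmb4* stood at 166 RPKM in the control, 209 in the knockdown, 219 in the wild-type rescue and 165 in the mutant rescue. Of the 7 beta ring genes, 6 were among the 23 members higher in both the knockdown and the wild-type rescue than in either of the other libraries, the exception being *Psmb2*. In the mutant rescue against the knockdown all 7 were lower, with a median of -0.32, and against the control the median was -0.01.

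The alpha ring did not share the first of these differences as a whole. In the knockdown against the control, 4 of 7 alpha ring genes were higher, with a median of 0.04 and a range of -0.11 to 0.41. The highest was *Psma5* (chromosome 3, 108164242 to 108187268, plus strand), with 4410 reads in the control, 6653 in the knockdown, 5821 in the wild-type rescue and 4245 in the mutant rescue. Its log2 ratio was 0.41 (0.33 to 0.49). In the mutant rescue, by contrast, all 7 alpha ring genes were lower than in the knockdown, with a median of -0.22, and 6 of 7 were lower than in the wild-type rescue, with a median of -0.31. The exception was *Psma4*, with 0.06. With GC content and length subtracted, 3 of 7 were higher in the mutant rescue than in the knockdown. Against the wild-type rescue 2 of 7 were then higher, *Psma4* and *Psma7* (0.0085).

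*Psma3*, *Psma6* and the base gene *Psmc1* are the members on chromosome 12, and all 3 were lower in the knockdown than in the control, by 0.11, 0.10 and 0.06 on the log2 scale. Genes of chromosome 12 averaging 500 reads or more had a median of -0.29 in that pair of libraries, with 51 of 335 higher. The part of the chromosome in the values of these members was not tested. Without the 3, the median of the members was 0.09 as before.

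Genes of the regulatory particle went in both directions. In the knockdown against the control the counting interval lay above 0 for 9 of the 17 and below 0 for 5. Over all tested genes, which include genes with fewer reads and wider intervals, these shares were 23.2% and 22.8%. For the mutant rescue against the wild-type rescue, GC content and length were subtracted. Then 5 of 9 base genes and 4 of 8 lid genes were higher, beside 48.1% of all genes treated in the same way. For the 9 base genes the median was 0.09 in the knockdown against the control and -0.12 in the mutant rescue against the wild-type rescue. For the 8 lid genes these medians were 0.03 and -0.01. *Psmd4*, for a base receptor of ubiquitin chains, is named here after its values were seen and went with the beta ring: it had 5501 reads in the control, 7453 in the knockdown, 6958 in the wild-type rescue and 5366 in the mutant rescue. Its log2 ratios were 0.25 (0.18 to 0.32) for the knockdown to the control and -0.33 (-0.40 to -0.25) for the mutant rescue to the wild-type rescue, the latter -0.07 with GC content and length subtracted. *Psmd2*, the large scaffold of the base and the member with the most reads, had 15926 reads in the control, 17143 in the knockdown, 16375 in the wild-type rescue and 15982 in the mutant rescue, and its log2 ratios in these pairs were -0.08 and 0.01. *Psmd14*, whose product cuts the ubiquitin chain from the substrate, was at 86.7, 83.8, 86.7 and 83.1 RPKM in the order the control, the knockdown, the wild-type rescue and the mutant rescue. Over the 14 constitutive core genes the median of the mutant rescue to the wild-type rescue was -0.33, and over the 17 genes of the regulatory particle it was -0.01.

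In the lid, *Psmd8* (chromosome 7, 28873612 to 28880098, minus strand) had 5524 reads in the control, 5035 in the knockdown, 5270 in the wild-type rescue and 5056 in the mutant rescue. Its log2 ratio of -0.32 (-0.40 to -0.24) in the knockdown against the control was opposite in sign to the medians of both rings. *Psmd12* (chromosome 11, 107370354 to 107388862, plus strand) had 6221 reads in the control, 7529 in the knockdown, 6067 in the wild-type rescue and 7127 in the mutant rescue. *Psmd11* (chromosome 11, 80319441 to 80364074, plus strand) had 5396, 7002, 5563 and 6288 reads in the same order. Both were higher in the knockdown and the mutant rescue than in the other libraries, and their log2 ratios of the mutant rescue to the wild-type rescue were 0.28 (0.21 to 0.35) and 0.23 (0.15 to 0.30). With GC content and length subtracted these became 0.33 and -0.06, and the ratio of *Psmd11* in the knockdown against the control fell from 0.19 to 0.02.

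**Figure D3:**
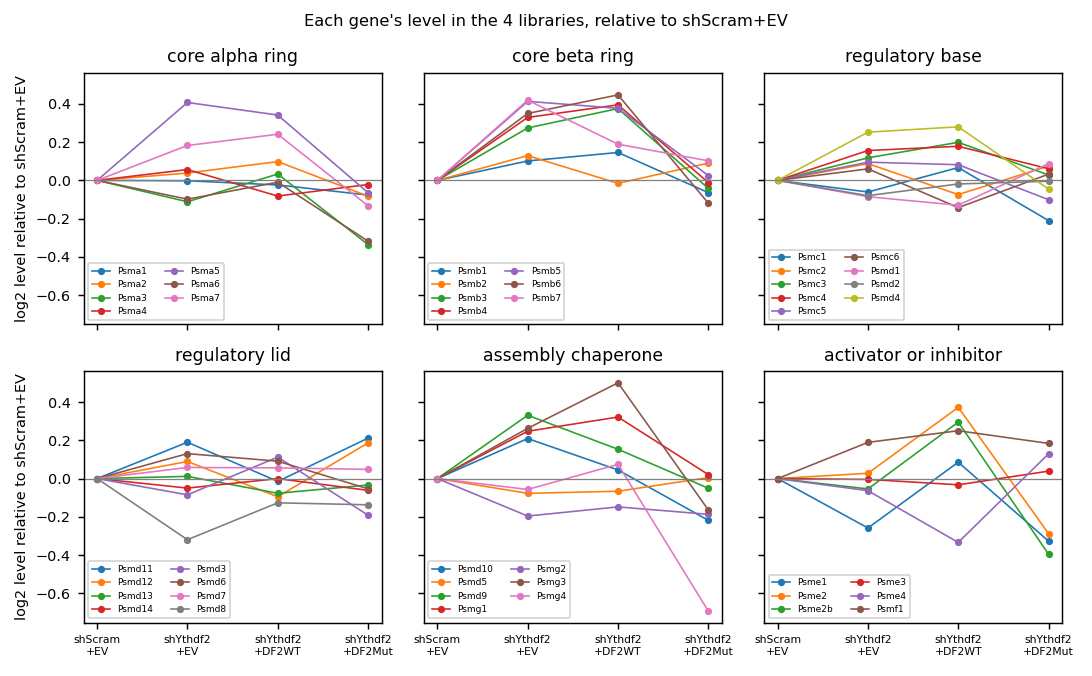
Log2 level of each gene relative to shScram+EV (vertical axis) in the 4 libraries (horizontal axis), with 1 panel per role, and lines that join the values of 1 gene and imply no order of the libraries. Beta ring genes lie at or above 0 in shYthdf2+EV and between -0.12 and 0.10 in shYthdf2+DF2Mut, and *Psmg4* lies at -0.69 in shYthdf2+DF2Mut.

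Among the 7 assembly chaperones, 4 were higher in the knockdown than in the control, with a median of 0.21. In the mutant rescue 6 were lower than in the wild-type rescue, with a median of -0.26. With GC content and length subtracted, these medians were 0.05 and -0.12. *Psmg3* and *Psmg4* encode partners that together help to build the alpha ring. *Psmg4* (chromosome 13, 34346947 to 34362155, plus strand) had 310 reads in the control, 339 in the knockdown, 340 in the wild-type rescue and 193 in the mutant rescue. Only the last library stood apart, with log2 ratios of -0.77 (-1.15 to -0.41) to the wild-type rescue, -0.63 (-1.02 to -0.28) to the knockdown and -0.69 to the control. *Psmg3* (chromosome 5, 139809368 to 139812649, minus strand) had 266 reads in the control, 363 in the knockdown, 392 in the wild-type rescue and 239 in the mutant rescue, and its log2 ratio of the mutant rescue to the wild-type rescue was -0.66 (-1.0 to -0.32). With GC content and length subtracted, these ratios of the mutant rescue to the wild-type rescue were -0.31 in *Psmg4* and -0.42 in *Psmg3*. Of the base chaperones, *Psmd5* was within 0.08 of 0 on the log2 scale in these pairs of libraries, and *Psmd9* and *Psmd10* were higher by 0.33 and 0.21 in the knockdown against the control, or 0.34 and 0.05 with that subtraction.

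The activators differed in opposite directions. *Psme1* and *Psme2* encode the subunits of PA28, an activator that is induced by interferon. *Psme1* (chromosome 14, 55815951 to 55818984, plus strand) had 1225 reads in the control, 1165 in the knockdown, 1354 in the wild-type rescue and 983 in the mutant rescue, and was lower in the knockdown than in the control by a log2 ratio of -0.26 (-0.42 to -0.09). *Psme2* (chromosome 14, 55824897 to 55828558, minus strand) had 376, 436, 507 and 310 reads in the same order, and its near-copy *Psme2b* (chromosome 11, 48836172 to 48837237, minus strand) had 115, 126, 147 and 88. Both were highest in the wild-type rescue and lowest in the mutant rescue, with log2 ratios between these of -0.66 (-0.96 to -0.37) and -0.69 (-1.27 to -0.14), or -0.35 and -0.52 with GC content and length subtracted.

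*Psme4* (chromosome 11, 30721753 to 30831150, plus strand), which encodes the nuclear activator PA200, had 9219 reads in the control, 10037 in the knockdown, 7620 in the wild-type rescue and 10151 in the mutant rescue. It was lowest in the wild-type rescue and had the highest log2 ratio of the mutant rescue to the wild-type rescue of any member averaging 50 reads or more, 0.46 (0.40 to 0.52). With GC content and length subtracted it fell to 0.15, below *Psmb2* at 0.37, *Psmd12* at 0.33, *Psmd13* at 0.30 and *Psmd8* at 0.23. *Psme3*, for the nuclear form of PA28, was nearly level at 56.8, 56.7, 55.6 and 58.4 RPKM in the control, the knockdown, the wild-type rescue and the mutant rescue. *Psmf1*, for the inhibitor PI31, had 963, 1249, 1193 and 1101 reads in that order, a log2 ratio of 0.19 (0.01 to 0.36) in the knockdown against the control.

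Tissue-specific subunits can take the place of constitutive ones. *Psma8* (chromosome 18, 14839192 to 14895358, plus strand), known as the alpha subunit of the testis proteasome, had 1139 reads in the control, 996 in the knockdown, 1019 in the wild-type rescue and 899 in the mutant rescue, at 12.3 to 16.0 RPKM. Its log2 ratio in the knockdown against the control was the lowest of all tested members, -0.38 (-0.56 to -0.20). That of its counterpart *Psma7* was 0.18. Per exon length, *Psma8* made up 16.2% of the sum of both in the control, 11.6% in the knockdown, 12.3% in the wild-type rescue and 14.3% in the mutant rescue. As a share of read pairs it was 21.5% (95% Wilson interval 20.0 to 23.1) in the control and 15.7% (14.4 to 17.0) in the knockdown.

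The subunits of the immunoproteasome, which interferon induces in place of the constitutive catalytic subunits, were rare. *Psmb9* (chromosome 17, 34400961 to 34406304, minus strand) had 13 reads in the control, 50 in the knockdown, 20 in the wild-type rescue and 23 in the mutant rescue. The log2 ratio of the knockdown to the control was 1.72, with a counting interval from 0.55 to 3.45, and that of the wild-type rescue to the knockdown was -1.17 (-2.42 to -0.09). Per length it was at most 0.841% of the sum of *Psmb9* and *Psmb6*. *Psmb10* (chromosome 8, 106662360 to 106665024, minus strand) had 208 reads in the control, 305 in the knockdown, 260 in the wild-type rescue and 191 in the mutant rescue, and its share beside *Psmb7* stayed between 2.23% and 2.75% per length. *Psmb8* had 6 reads in the control, 8 in the knockdown and 0 in both rescue libraries, where 3 counts are taken as the limit that 0 allows, and thymus *Psmb11* had 2, 1, 2 and 6 reads. No ratio is given for either.

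**Figure D4:**
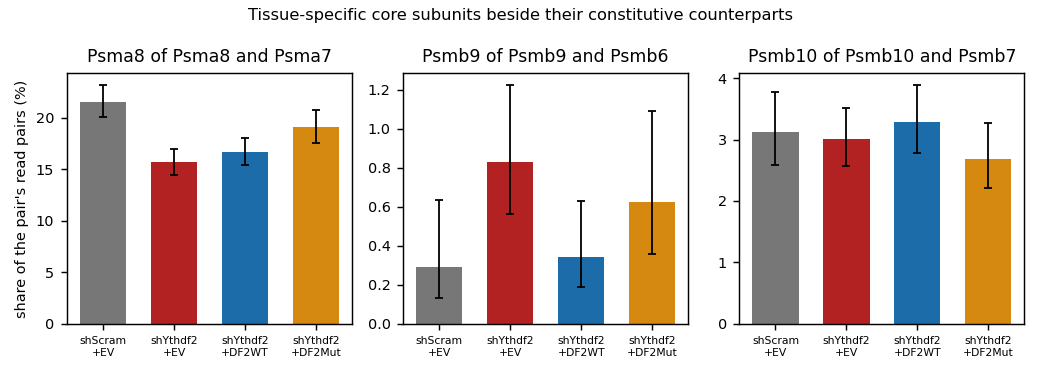
Share of the read pairs of a tissue-specific subunit and its constitutive counterpart that came from the tissue-specific one (percent, vertical axis from 0), in the 4 libraries, with 95% Wilson intervals as error bars. The *Psma8* share is highest in shScram+EV at 21.5% and lowest in shYthdf2+EV at 15.7%, and the *Psmb10* intervals overlap in all libraries.

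The partners of the proteasome gave a mixed picture. Of 18 tested cofactors that bind or help to build it, 14 were higher in the knockdown than in the control (median 0.16). In the mutant rescue against the wild-type rescue 11 were higher, with a median of 0.11. Over all tested genes 49.8% and 49.0% were higher in these pairs. *Sem1*, the smallest lid subunit, is among the cofactors because its symbol lies outside the rule. It had 829 reads in the control, 1507 in the knockdown, 1438 in the wild-type rescue and 963 in the mutant rescue, and so followed the order of the beta ring. *Pomp*, the chaperone of the maturing core, followed it too, with 1408, 2078, 1847 and 1233 reads in that order and log2 ratios of 0.38 for the knockdown to the control and -0.53 for the mutant rescue to the wild-type rescue.

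Other cofactors had another order. *Zfand5*, for a zinc-finger protein that activates the proteasome, had 1450 reads in the control, 2478 in the knockdown, 1632 in the wild-type rescue and 2203 in the mutant rescue, high in the same libraries as the 2-cell-like markers. *Zfand2a*, for an arsenite-inducible relative, had 509, 986, 828 and 922 reads in that order and was lowest in the control.

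*Nfe2l1* itself had 6884 reads in the control, 9464 in the knockdown, 8407 in the wild-type rescue and 8476 in the mutant rescue, a log2 ratio of 0.27 to the control in the knockdown and of 0.06 between the 2 rescue libraries. Of 13 genes for its processing and its partners, 8 were higher in the knockdown than in the control, beside 49.8% of all tested genes. The median of the 13 was 0.10. Of 9 target genes of NFE2L1 or NFE2L2 outside the proteasome, 5 were higher, beside the same share, with a median of 0.15. One of these, *Slc7a11*, for a cystine transporter, is named here after its values were seen: it had 213 reads in the control, 309 in the knockdown, 13 in the wild-type rescue and 277 in the mutant rescue.

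*Ubb*, which encodes ubiquitin, followed the order of the beta ring, with 15864 reads in the control, 24600 in the knockdown, 24252 in the wild-type rescue and 15758 in the mutant rescue. Among 22 ubiquitin-activating and conjugating enzymes, 12 were higher in the knockdown than in the control (median 0.08), beside 49.8% of all tested genes. The only one at least 1.5-fold different was *Ube2j1*, an enzyme of the endoplasmic reticulum, with 570 reads in the control and 423 in the knockdown.

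Antigen processing, which uses peptides made by the proteasome, had 6 of 13 genes higher in the knockdown, with a median of -0.02. Over all tested genes 49.8% were higher in the knockdown than in the control, a share that applies to each list in this paragraph. *Tap1*, for a subunit of the peptide transporter, had 233 reads in the control and 451 in the knockdown, a log2 ratio of 0.77 (0.45 to 1.11). *Tap2*, for the other subunit, had 32 and 64 reads, and its ratio of 0.80 had a counting interval that spans 0 (-0.09 to 1.78). Of the 10 genes of the COP9 signalosome, a relative of the lid, 9 were higher with a median of 0.09, and 2 passed 1.5-fold in opposite directions: *Cops9* had 340 reads in the control and 659 in the knockdown, and *Cops7a* had 4472 and 3366. Of the 8 chaperonin genes, a cytosolic complex at 123 to 311 RPKM in the control, 2 were higher with a median of -0.14, but *Cct3* had 7624 reads in the control, 19447 in the knockdown, 10137 in the wild-type rescue and 16213 in the mutant rescue, the order of the 2-cell-like markers.

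The cytosolic ribosomal protein genes were taken as a second set of short, abundant and constitutive transcripts. Of 76 such genes, 57 were higher in the knockdown than in the control, beside 49.8% of all tested genes, with a median of 0.18. All 76 were lower in the mutant rescue than in the wild-type rescue, beside 51.0% of all tested genes, with a median of -0.61. In that last pair they lay further from 0 than the core particle, with -0.33, or the regulatory particle, with -0.01. Values with GC content and length subtracted were not computed for this set.

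Transcript length moved with these ratios. The tested members had a median summed exon length of 1436 bases, beside 3393 for all tested genes, and 949 in the beta ring. Across the 49 tested members, the ratio of the mutant rescue to the wild-type rescue had a Spearman correlation of 0.53 with length. With GC content it was -0.42, across the 48 members with a transcript in the GENCODE vM21 annotation. Across all tested genes these were 0.25 and -0.39, and across genes averaging 500 reads or more 0.37 and -0.51. Genes are not independent replicates, and all points come from the same libraries. When genes averaging 500 reads or more were ordered by length, the shortest 10%, with a median of 1066 bases, had a median log2 ratio of 0.15 for the knockdown to the control and -0.32 for the mutant rescue to the wild-type rescue. In the longest 10% these were -0.05 and 0.17.

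After a smooth of GC content and length over all tested genes was subtracted, the 7 beta ring genes were still all higher in the knockdown than in the control, with a median of 0.20. Their median in the mutant rescue against the wild-type rescue was -0.11 in place of -0.35, with 2 of 7 higher. The alpha ring median became -0.14 in the first pair and -0.24 in the second, and the base median turned to -0.05 and 0.05. Over the 48 members, 27 were higher in the first pair, with a median of 0.03, and 18 in the second, with a median of -0.05, beside 46.8% and 48.1% of all genes treated in the same way. The part of length and GC content in the differences was not tested beyond this.

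**Figure D5:**
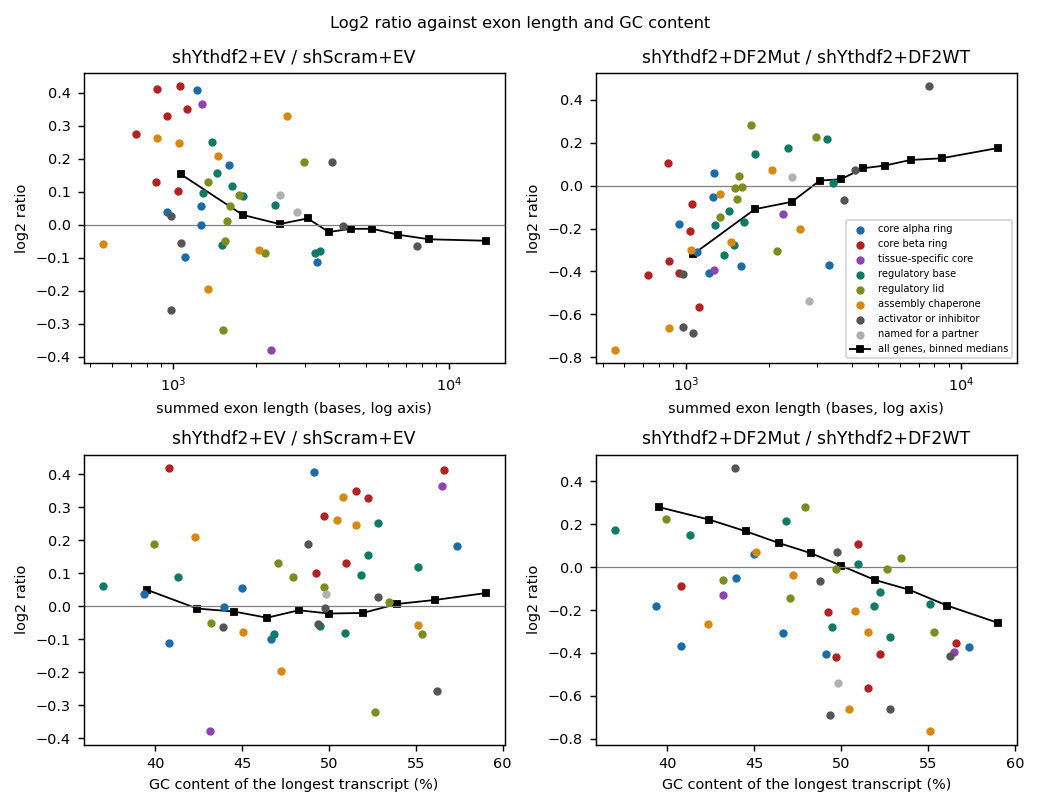
Log2 ratio (vertical axes) of proteasome genes averaging 50 reads or more, coloured by role, against summed exon length (top, log axis) and GC content (bottom), for 2 pairs of libraries. Black squares join the medians of 10 equal groups of all genes averaging 500 reads or more, which run from -0.32 to 0.17 with length in the top right panel.

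The pairs the knockdown to the control and the mutant rescue to the wild-type rescue share no library, and for the 2-cell-like markers all 10 were higher in both. Among the 49 members, 9 were higher in both, beside 30.5% of all tested genes, and 12 lower in both, beside 31.7%. Another 23 were higher in the first and lower in the second, beside 19.3%, and 5 the reverse, beside 18.5%. The Spearman correlation of these ratios was -0.17 across the members and 0.36 across all tested genes, with Pearson values of 0.04 and 0.38. Among markers of other cell types, the sums were between 348 and 521 reads for 7 fibroblast genes, with 2 or 3 at 0 in each library, 252 to 315 for 6 haematopoietic genes, 410 to 815 for 6 primitive endoderm genes and 2581 to 2985 for 6 trophectoderm genes. The part of these cells in the values above was not tested.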

How the data were processed

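Poly(A)+ RNA-seq of 4 libraries was taken from 1 table, in which the authors deposited reads counted per gene symbol. Per the file headers, counting used featureCounts 2.0.3 on the mm39 RefSeq exons, without strand and without the option for read pairs, so mates were counted separately. Reads with several alignments or several genes were left out. The aligner's settings were not given in the sources used here, and the submitters' notes name HISAT2 2.2.1, fastp 0.19.4 and DESeq2 1.40.2, and the mm10 build, without a role. Library sizes were scaled by TMM in edgeR 4.0.16 (R 4.3.3). Log2 ratios used a prior count of 0.5, with 95% Clopper-Pearson intervals on read pairs (reads divided by 2). Amplified reads are not independent molecules. RPKM used the deposited exon length. A role's counting bounds are the medians of its members' bounds. Near-identical sequence was sought with blastn 2.17.0 (at least 98% identity over 100 bases) in GENCODE vM21. Scripts were tested on simulated data. Genes were named by a rule: the 3 highest and 3 lowest members in each of 2 pairs, members at least 1.5-fold different with a mean count of at least 50, catalytic and tissue-specific subunits, activators, genes of other pathway lists at least 1.5-fold different in the knockdown against the control with that mean count, and *Nfe2l1*, *Pomp* and *Ubb*. Other genes were named as examples of their role after their values were seen. Members and lists were chosen with earlier results of these data known. Alternatives were other scalings, prior counts and filters, and a subtraction of GC content and length.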

Additional observations from a re-analysis of the deposited data

How the results depend on the processing

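Of 1584 values of summaries and named genes under alternatives, 1511 stayed within the counting bounds or within 1.5 times the count. Where the bounds spanned 0, a value among these could still turn its sign. Scaling moved the median of all tested genes by at most 0.05. Filters at a mean of 1 read or at 1 read in any library let *Psmb8* and *Psmb11* in, and 2 members were then at least 2-fold lower in the wild-type rescue against the knockdown, 1 was higher and 1 lower in the mutant rescue against the knockdown, 1 was higher in the mutant against the wild-type rescue, and against the control 1 was lower in the wild-type rescue and 1 was higher and 1 lower in the mutant rescue. With a mean of at least 50 reads, *Psmb9* left and both counts at 2-fold that held it became 0. At 1.5-fold, 2 members were lower in the mutant rescue against the knockdown, 4 against the wild-type rescue, and 1 was higher and 1 lower against the control.

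Subtracting GC content and length moved the most. In the knockdown against the control the medians became -0.14 in the alpha ring, 0.20 in the beta ring and -0.049 in the base. In the mutant rescue against the knockdown they became -0.082, -0.13 and 0.039 in the same order and 0.079 in the lid, with 22 members higher. In the mutant against the wild-type rescue the beta ring became -0.11 and the base 0.054. Against the control the base became -0.017 in the wild-type rescue and the beta ring 0.076 in the mutant rescue. Some signs turned in members that the naming rule chose and whose counting interval lay off 0. They were *Psmb7* (0.010) and *Psmd11* (0.069) in the wild-type rescue against the knockdown. In the mutant against the wild-type rescue they were *Psmb5* (0.10), *Psme1* (0.010) and *Psmd11* (-0.063). In the mutant rescue against the control it was *Psme4* (-0.054). Where the interval spanned 0 other signs turned, such as that of *Psmd8* (0.23) in the mutant against the wild-type rescue. Members outside the naming rule turned too, with intervals off 0, such as *Psma7* (0.0085), *Psmc3* (0.14) and *Psmc6* (-0.13) in that pair. Without the 4 members that have near-identical copies, chosen after seeing the data, the median of activators in the mutant against the wild-type rescue became 0.00259. The causes were not tested.

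No paired analysis was possible because each group has 1 library, so there is no replicate to leave out. Depth limits the members under 500 reads: the interval of *Psmb9* spans more than 2 log2 units, and nothing can be said of *Psmb8* or *Psmb11*.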
